A study of Nicotiana tabacum with 9 samples.

Results

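The genes described are those of tobacco leaf for which all 6 values of the lines M21 and G27 lay above, or all 6 lay below, all 3 values of the genotype NC82. The deposited table listed 69500 genes in 9 libraries. Of these, 33188 reached a value of 1 in 3 or more libraries and were tested. Of the tested genes 6117 lay outside the NC82 range, 3797 above it and 2320 below it. The libraries came from young leaf of Nicotiana tabacum, sampled in the squaring period of flower bud formation. There were 3 libraries of M21, 3 of G27 and 3 of NC82, the last named like a cultivar of flue-cured tobacco. Both lines are taken here as lines with an altered NtAN3 gene, following the title of the series, but the labels give only the names of the genotypes, and neither the change in each line nor how it was made. Nor do they state whether replicates were separate plants, so that p-values measure the spread between samples, which may be technical.

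AN3 is a co-activator of transcription of the SS18 family. In Arabidopsis it has no DNA-binding domain of its own, binds growth-regulating factors and brings chromatin-remodelling complexes to their target genes. There it is known for keeping cells of young leaves dividing, and plants that lack it have narrow leaves with fewer cells. The gene descriptions in the table are protein domain names, with no gene symbols, so genes are given here by identifier and domain, and the roles stated are those known for the domain class in plants, mostly from Arabidopsis.

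The values are the authors' normalized expression signal, scaled for depth, in a unit that the table does not name. Library sums lay between 771390 and 790816, and the libraries listed between 42762 and 44059 genes above 0. Relative read depth, estimated from the steps between low values with NC82 replicate 1 at 1.0, ran from 0.8 to 0.88 in M21, from 0.85 to 0.93 in G27 and from 0.91 to 1.19 in NC82. Leaf markers were abundant in every library: genes for chlorophyll a/b binding proteins held 4.32 to 5.23% of the sum in M21, 4.3 to 5.03% in G27 and 4.32 to 4.9% in NC82. Pollen-domain genes held 0.253 to 0.261% in M21, 0.233 to 0.258% in G27 and 0.255 to 0.269% in NC82, and 5 of their 74 tested genes lay above the NC82 range and 14 below it. Oleosin genes, a seed marker, held at most 0.0015% in M21, 0.00176% in G27 and 0.00179% in NC82. On the third principal component, which held 11.6% of the variance, M21 replicate 3, G27 replicate 1 and NC82 replicate 1 had the highest scores of their groups, 0.348, 0.46 and 0.497. M21 replicate 2 and G27 replicate 2 lay as far out on the other side, at -0.375 and -0.41, so that in M21 and G27 the replicates were spread with no single library apart. The 3 libraries with the highest scores were left out together as an alternative.

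Genes above the NC82 range made up 11.4% of those tested and genes below it 6.99%. The rule uses the comparison of lines with NC82, so these counts describe the data and test nothing. The leaves were sampled in bulk, so more cells of a type and more RNA per cell cannot be told apart. In a limma fit on log2(value + 1) over all tested genes, 3965 genes (11.9%) rose in the lines and 2971 (8.95%) fell at an adjusted p under 0.05. Of the 3797 genes above the range 3054 were among the genes that rose, and of the 2320 below it 1995 were among those that fell. The fit uses the same values as the rule, so this overlap is no separate support. Nor are the p-values of genes chosen by their gap. Most differences were small. The median log2 change, lines minus NC82, was 0.41 among genes above, with quartiles at 0.27 and 0.67, and -0.46 among genes below, with quartiles at -0.7 and -0.3, against 0.04 over all tested genes. The gap between the nearest line value and the nearest NC82 value, each plus 1, reached 2-fold for 159 genes above and 36 below. Without the 3 libraries high on the third component, 5934 genes lay above and 4881 below, a looser rule because fewer values have to clear each other. Without NC82 replicate 1 alone 3805 genes lay below, and limma called 1931 and 1904 genes lower without NC82 replicates 2 and 3. With the libraries rescaled by their median ratio the split became 3123 above and 3075 below, with a median shift of -0.039 in the log2 change, so that the excess of genes above over genes below depended on the authors' scaling.

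The limit of the rule is narrow. Nitab4.5_0013371g0010 was just inside, with a lowest line value of 38.4 against a highest NC82 value of 38.38. Nitab4.5_0011569g0030 was just inside on the other side, with a highest line value of 58.34 against a lowest NC82 value of 58.35. Just outside were Nitab4.5_0000040g0270, where both of these values were 6.48, and Nitab4.5_0000002g0590, where both were 2.76. A further 2752 genes had 5 of the 6 line values above the NC82 range and 1630 had 5 of them below it. The filter was passed only through the line libraries by 435 of the genes above and only through NC82 by 86 of the genes below. Among the genes that failed the filter, 551 lay above and 393 below. Genes of every level were present. Of tested genes with a mean value under 5, 11.1% lay above and 6.49% below, and of those with a mean of 100 or more 6.72% lay above and 9.78% below. Together the genes above the range held 8.81 to 9.41% of the library sum in M21, 8.36 to 8.68% in G27 and 5.74 to 5.82% in NC82.

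The SS18 family, to which AN3 belongs, had 4 tested genes, and 1 of them lay outside the NC82 range. Nitab4.5_0007901g0050 was at 5.0, 5.80 and 4.32 in M21, 760.1, 604 and 621 in G27 and 0.34, 0.25 and 0.25 in NC82. The NC82 libraries were close to 0, the M21 libraries low but all above them, and the G27 libraries higher by more than 2 orders of magnitude. Its means were 5.04 ± 0.741 in M21, 662 ± 85.5 in G27 and 0.28 ± 0.052 in NC82 (SD, n = 3 each). The log2 change of both lines over NC82 was 5.62 (SE 0.09, limma adjusted p = 2.5e-10), and the M21 minus G27 difference was -6.78 (SE 0.11, limma adjusted p = 1.6e-10). With both lines fitted as one group, so that their difference counts as spread, the change of 5.62 had a limma adjusted p of 0.061. The others, Nitab4.5_0000319g0250, Nitab4.5_0000768g0010 and Nitab4.5_0001993g0030, overlapped with NC82 and were not called in the lines against NC82 (limma adjusted p = 0.97, 0.27 and 0.26). Their NC82 means were 23.8 ± 1.61, 1.67 ± 0.232 and 8.38 ± 0.737 (SD, n = 3 each). The last of them differed between the lines, at 6.66, 6.82 and 6.38 in M21 and 8.33, 8.94 and 8.98 in G27 (limma adjusted p = 0.016). That call was lost without M21 replicate 1, M21 replicate 3 or G27 replicate 3, and without the 3 libraries high on the third component (limma adjusted p of 0.055 to 0.06). Tobacco carries near-identical gene copies from both of its parent species, and reads shared between copies could be split between them, here and for every gene below.

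The genes with the widest gaps above the range were at low or moderate levels in NC82 and broadly similar in both lines. Nitab4.5_0000933g0090, a protein of unknown function, was at 24.6, 22.2 and 27.1 in M21, 31.5, 20.6 and 22.9 in G27 and 0.51, 0.77 and 0.68 in NC82. Every line library was above 20 and every NC82 library under 1, and the gene rose with a log2 change of 3.95 (SE 0.12, limma adjusted p = 3.1e-08). An actin-related protein, Nitab4.5_0006882g0050, was at 26.9, 29.4 and 33.3 in M21, 31.4, 31.8 and 29.4 in G27 and 2.86, 3.66 and 3.55 in NC82. It rose by 2.85 on the log2 scale (SE 0.08, limma adjusted p = 3.1e-08), with all line values between 26.9 and 33.3. Nitab4.5_0003541g0040, of glycoside hydrolase family 13, which holds amylases and starch-branching enzymes, was at 17.1, 16.4 and 18.5 in M21, 19.9, 18.5 and 19.3 in G27 and 2.02, 1.51 and 1.61 in NC82. Its log2 change was 2.83 (SE 0.08, limma adjusted p = 1.8e-08). Nitab4.5_0003771g0010 has the CAP domain of PR-1, a secreted defence protein, and was the most abundant of these genes, at 1022, 918 and 1139 in M21, 564, 911 and 706 in G27 and 76.4, 93.5 and 99.6 in NC82. The lowest line value, in G27 replicate 1, was still several times the highest NC82 value, and the log2 change was 3.24 (SE 0.14, limma adjusted p = 2.9e-07). Nitab4.5_0007303g0080, with a FAR1 domain, a transposase-derived DNA-binding domain, was at 4.01, 8.21 and 20.7 in M21 and 19.1, 17.6 and 12.7 in G27, and was listed at 0 in each of the 3 NC82 libraries. The M21 values of this gene were spread more widely than the G27 values.

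Other wide gaps above the range belonged to 2 enzymes of glycoside hydrolase family 17, the family of beta-glucanases that cut callose and fungal wall glucans. Nitab4.5_0008527g0010 was at 92.3, 89.7 and 101 in M21, 89.5, 130.5 and 110.1 in G27 and 10.5, 14.5 and 14.2 in NC82, a log2 change of 2.87 (SE 0.12, limma adjusted p = 2.9e-07). Nitab4.5_0002120g0050 rose by 2.81 on the log2 scale (SE 0.15, limma adjusted p = 9.3e-07), with means of 29.1 ± 1.27 in M21, 34.9 ± 2.92 in G27 and 3.81 ± 1.4 in NC82 (SD, n = 3 each). Nitab4.5_0004861g0050, which has no domain in its description, averaged 71.9 ± 9.8 in M21, 53.5 ± 14.7 in G27 and 4.45 ± 1.24 in NC82 (SD, n = 3 each). Nitab4.5_0005289g0010, a family 35 glycoside hydrolase, a class of beta-galactosidases, was at 12.5, 10.7 and 15.9 in M21, 12.7, 9.72 and 10.8 in G27 and 1.02, 1.21 and 1.08 in NC82. A lipid-transfer-like gene, Nitab4.5_0000625g0070, ran from 11.7 to 15.7 in M21, from 16.8 to 37.7 in G27 and from 0.4 to 1.64 in NC82. Nitab4.5_0006492g0010, a C2H2 zinc finger, averaged 38.3 ± 6.49 in M21, 33.6 ± 2.13 in G27 and 5.52 ± 0.846 in NC82 (SD, n = 3 each). All 6 of these rose, with limma adjusted p of at most 6.6e-06.

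Below the range, PHOSPHO-type phosphatases and SPX proteins took 4 of the 10 widest gaps. Nitab4.5_0009182g0010, a PHOSPHO-type phosphatase, was at 16.7, 19.6 and 16.5 in M21, 11.7, 12.3 and 10.7 in G27 and 88.2, 96.5 and 108 in NC82. It fell by 2.68 on the log2 scale (SE 0.08, limma adjusted p = 3.1e-08), and all NC82 values were more than 4 times every line value. A second PHOSPHO-type gene, Nitab4.5_0000255g0110, was at 11.2, 11.5 and 10.8 in M21, 7.60, 12.2 and 8.27 in G27 and 49.5, 64.5 and 72.2 in NC82. Its NC82 values differed more among themselves than its M21 values, and the log2 change was -2.49 (SE 0.14, limma adjusted p = 1.1e-06). Nitab4.5_0001574g0130, of the GDA1/CD39 family of enzymes that remove phosphate from nucleotides, was at 2.23, 2.31 and 2.33 in M21, 1.26, 3.83 and 1.76 in G27 and 15.9, 21.1 and 20.7 in NC82. G27 replicate 2 was the highest line library and still far under NC82, and the log2 change was -2.65 (SE 0.19, limma adjusted p = 5.4e-06). A MADS-box gene, Nitab4.5_0000154g0260, was listed at 0 in 5 line libraries and at 0.08 in M21 replicate 3, and was at 3.92, 3.3 and 5.11 in NC82. MADS-box genes include regulators of flowering and of flower organs. Nitab4.5_0002752g0140, with a CBS domain, averaged 0.533 ± 0.224 in M21, 0.0667 ± 0.0153 in G27 and 6.43 ± 0.721 in NC82 (SD, n = 3 each). Nitab4.5_0000365g0010, with no domain in its description, averaged 0.823 ± 0.255 in M21, 0.177 ± 0.0404 in G27 and 7.15 ± 0.465 in NC82 (SD, n = 3 each). The GDSL lipase Nitab4.5_0004863g0030 and the thaumatin Nitab4.5_0007816g0020 had log2 changes of -2.05 and -2.27 (limma adjusted p = 1.1e-06 and 1.3e-06).

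**Figure D1:**
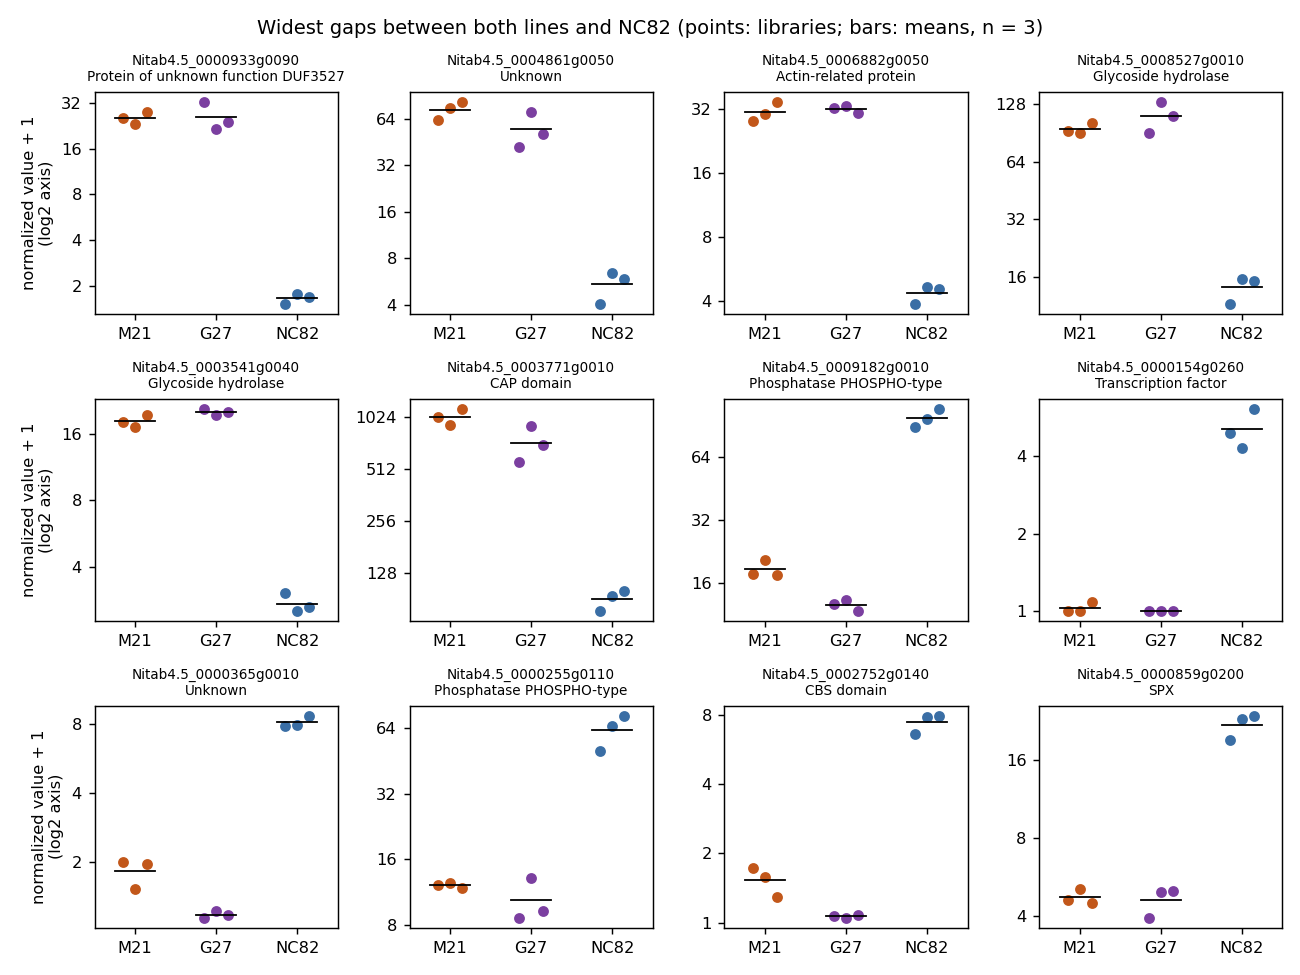
Values of 12 genes with the widest gaps, 6 above the NC82 range and 6 below it, in each library, as the normalized value plus 1 on a log2 axis, with M21, G27 and NC82 from left to right. Points are libraries and bars are means (n = 3); in every panel the 6 line points and the 3 NC82 points are separated by a gap, and for the MADS-box gene Nitab4.5_0000154g0260 5 of the line values are 0.

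By domain class, 68 classes with at least 5 tested genes were counted, of which 41 had more genes above than below, 23 more below than above and 4 equal numbers. A second set of 39 narrower classes was added after the values had been seen. These are, among those described here, the VQ, bulb-type lectin, wall-associated kinase, Gnk2, calmodulin-binding, MACPF, PAR1, CAP, family 17 to 19 glycoside hydrolase, syntaxin, Exo70, Snf7, SPX, PHOSPHO, triose-phosphate transporter, purple acid phosphatase, glycerophosphodiesterase, galactolipid, sucrose-phosphate synthase, SWEET, heavy metal, SNARE-associated Golgi, DUF506, ammonia-lyase, chalcone, QLQ and MCM classes, and genes named in them were chosen with their values known. The counts are read against the 11.4% of all tested genes that lay above and the 6.99% that lay below. When genes were instead sorted by the first domain in their description, 230 domains had at least 20 tested genes. The highest shares above belonged to the bulb-type lectin domain with 70.3%, the WRKY domain with 58.8%, VQ with 56.7% and DUF247 with 52.2%. Next came the Cys-rich family of uncharacterised proteins with 46.7%, Snf7 with 41.4%, the N-terminal domain of non-haem dioxygenases with 36.4% and disease resistance protein with 35.3%. The highest shares below belonged to SNARE-associated Golgi proteins with 43.5%, aquaporin-like proteins with 37.5% and glycosyl transferase family 1 with 34.6%. After these came the major intrinsic protein domain with 31.8%, SWEET transporters with 29.6% and the heavy metal-associated domain with 29.2%.

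**Figure D2:**
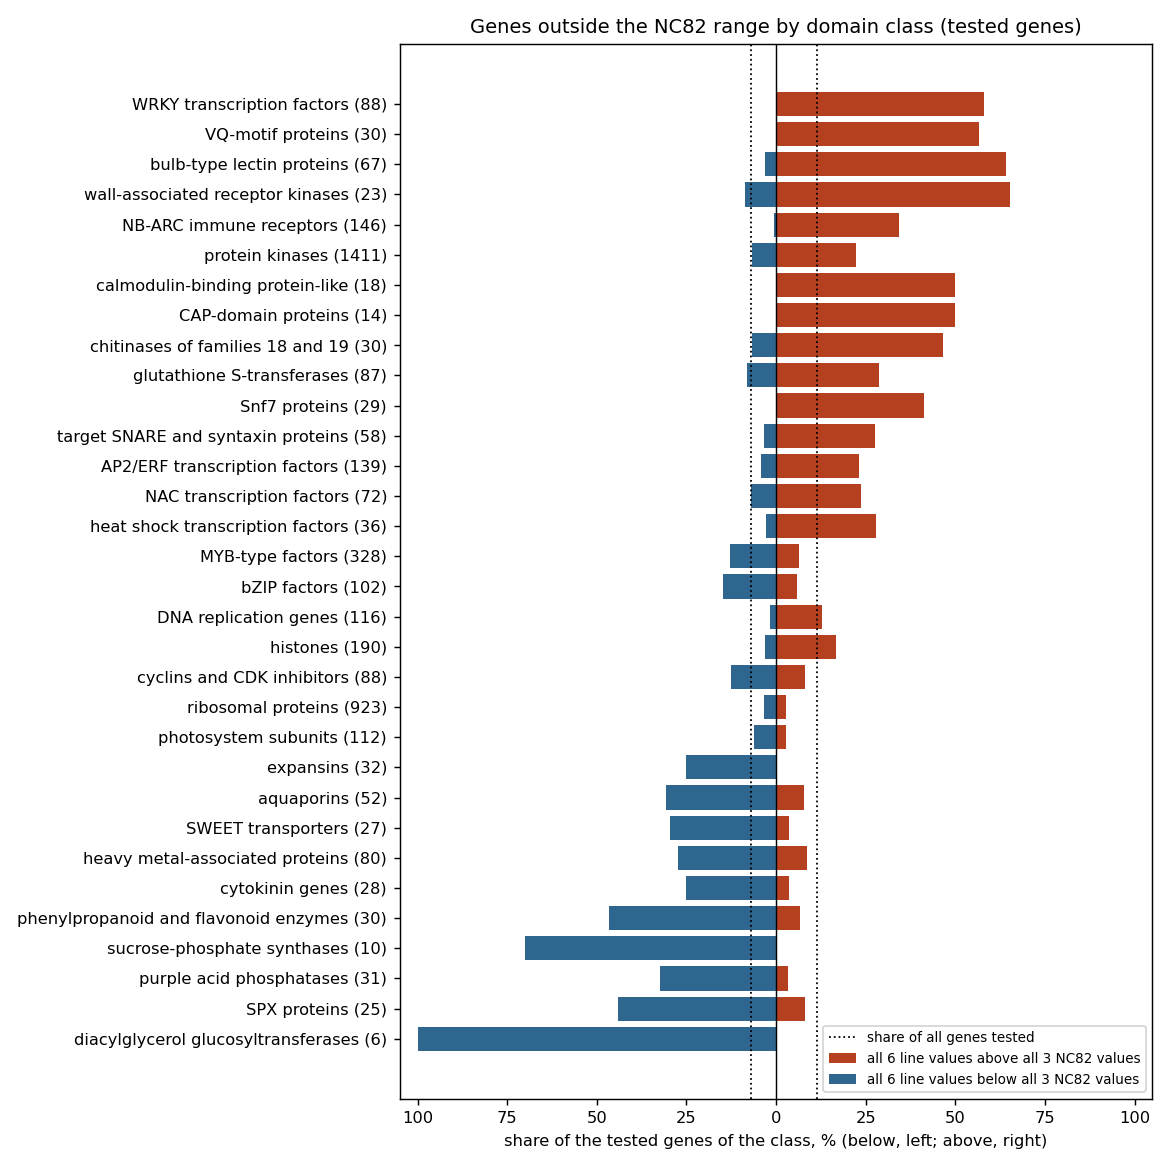
Share of the tested genes of 32 domain classes that lay above the NC82 range (right, red) or below it (left, blue), in percent, with the number of tested genes in parentheses. Dotted lines mark the shares over all tested genes, 11.4% above and 6.99% below; WRKY genes reach 58.0% on the right with none on the left, and all 6 diacylglycerol glucosyltransferases lie on the left.

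WRKY transcription factors, which bind the W-box of defence gene promoters, were the fixed class with the highest share above. Of 88 tested WRKY genes, 51 lay above the NC82 range and 0 below, and limma called 53 higher and 0 lower. Their median log2 change among genes above was 0.87, with a range of 0.13 to 2.12. The widest gap was that of Nitab4.5_0000171g0190, at 41.6, 44.4 and 44.7 in M21, 46.9, 38.6 and 37.8 in G27 and 11.8, 13.02 and 14.3 in NC82. Each line library was at least 2 times every NC82 library, and the gene rose by 1.63 on the log2 scale (SE 0.08, limma adjusted p = 6.6e-07). VQ-motif proteins, small partners of WRKY factors, had 17 of 30 tested genes above and 0 below. Among them Nitab4.5_0004588g0030 was at 43.9, 47.5 and 40.2 in M21, 42.5, 40.01 and 37.4 in G27 and 16.5, 18.9 and 17.9 in NC82. It rose by 1.19 on the log2 scale (SE 0.07, limma adjusted p = 1.7e-06). Calmodulin-binding protein-like genes, a family that in Arabidopsis includes regulators of salicylic acid synthesis, had 9 of 18 above and 0 below. Nitab4.5_0014673g0010 of this family was low throughout, at 1.96, 1.93 and 2.32 in M21, 2.39, 1.59 and 1.80 in G27 and 0.20, 0.25 and 0.28 in NC82, with no overlap of the groups. Without the 3 libraries high on the third component, the genes above and below numbered 54 and 1 for WRKY, 21 and 0 for VQ, and 9 and 1 for the calmodulin-binding family. For 6 of the 51 WRKY and 4 of the 17 VQ genes above, NC82 was under 1 in every library. The same held for 3 of the 9 calmodulin-binding genes above, Nitab4.5_0014673g0010 among them. These genes entered the test only through the lines.

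Receptors of the plant surface leaned to the same side. Bulb-type lectin proteins, mostly receptor kinases with a lectin-like outer part, had 43 of 67 tested genes above and 2 below. For 21 of the 43, NC82 was under 1 in every library, so they entered the test only through the lines. An example is Nitab4.5_0000360g0040, at 3.22, 2.79 and 3.71 in M21, 2.61, 2.88 and 2.27 in G27 and 0.40, 0.62 and 0.34 in NC82. Another, Nitab4.5_0006991g0060, was at 10.2, 7.08 and 10.3 in M21, 10.1, 8.84 and 8.92 in G27 and 2.33, 3.05 and 2.25 in NC82, a log2 change of 1.53 (SE 0.12, limma adjusted p = 7.9e-06). Wall-associated receptor kinases, which bind pectin in the cell wall, had 15 of 23 above and 2 below. Proteins with the Gnk2 domain, which in plants marks cysteine-rich receptor kinases and secreted antifungal proteins, had 17 of 34 above and 0 below. The large classes leaned the same way with smaller shares: 314 of 1411 protein kinases lay above and 94 below, and 119 of 497 leucine-rich repeat proteins lay above and 29 below. Here too some genes entered only through the lines: 67 of the 314 kinases and 33 of the 119 leucine-rich repeat proteins. The same held for 6 of the 17 Gnk2 genes and 3 of the 15 wall-associated kinases, against 435 of all 3797 genes above. The kinase with the widest gap, Nitab4.5_0001380g0040, was at 6.22, 4.87 and 6.84 in M21, 4.84, 4.68 and 2.90 in G27 and 0.26, 0.18 and 0.14 in NC82. The leucine-rich repeat gene Nitab4.5_0003991g0020 was at 52.6, 53.3 and 59.2 in M21, 51.4, 61.2 and 51.2 in G27 and 11.2, 12.1 and 14.8 in NC82, a log2 change of 2.03 (SE 0.09, limma adjusted p = 3.3e-07).

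Intracellular immune receptors with an NB-ARC domain, the switch module of resistance proteins, had 50 of 146 tested genes above and 1 below. For 16 of the 50, NC82 was under 1 in every library, so they too entered only through the lines. The median change among those above was 0.42, smaller than that of the WRKY genes. Nitab4.5_0013129g0010 had the widest gap, at 75.4, 63.7 and 80.5 in M21, 73.1, 56.04 and 57.5 in G27 and 30.9, 28.9 and 28.6 in NC82, and rose by 1.16 on the log2 scale (SE 0.1, limma adjusted p = 1.3e-05). The single gene below, Nitab4.5_0009633g0010, was not called (log2 change -0.17, limma adjusted p = 0.2). MACPF proteins, which in Arabidopsis include restrainers of cell death, had 12 of 16 above and 0 below, with log2 changes of 0.23 to 0.6. EF-hand calcium sensors had 58 of 374 above and 24 below, and protein phosphatases of the 2C type, among them the brakes of abscisic acid signalling, had 25 of 148 above and 4 below.

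Many secreted defence enzymes were also above the range. The class of chitinases and other pathogenesis-related families had 39 of 134 tested genes above, with a median log2 change of 1.33, and 16 below, with a median of -0.6. Within it, chitinases of glycoside hydrolase families 18 and 19, which cut the chitin of fungal walls, had 14 of 30 above and 2 below. Nitab4.5_0002926g0010 was at 58.4, 61.3 and 57.6 in M21, 55.6, 71.7 and 68.6 in G27 and 8.65, 13.4 and 10.6 in NC82, and rose by 2.42 on the log2 scale (SE 0.12, limma adjusted p = 4.8e-07). A more abundant one, Nitab4.5_0001581g0010, was at 482, 512 and 515 in M21, 403, 619.8 and 496 in G27 and 99.04, 146 and 136 in NC82. Its G27 values ran over a wider range than its M21 values, and all 6 were well clear of NC82. CAP-domain genes had 7 of 14 above and 0 below, with log2 changes of 1.53 to 3.24. Nitab4.5_0005400g0020 among them was at 745, 752 and 829.5 in M21, 448, 666 and 527 in G27 and 146, 164 and 212 in NC82. Family 17 glucanases had 13 of 50 above and 2 below. Thaumatins, the PR-5 family, were divided, with 7 of 24 above and 5 below. Of the 39 genes above in the class of chitinases and other pathogenesis-related families, 7 entered the test only through the lines. PAR1 proteins, a small family described in tobacco as photoassimilate-responsive, had 6 of 7 tested genes above and 0 below. Nitab4.5_0001754g0010 of this family was at 166, 164 and 179 in M21, 134, 186 and 150.3 in G27 and 19.5, 29.1 and 25.8 in NC82, and rose by 2.68 on the log2 scale (SE 0.12, limma adjusted p = 3.4e-07).

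**Figure D3:**
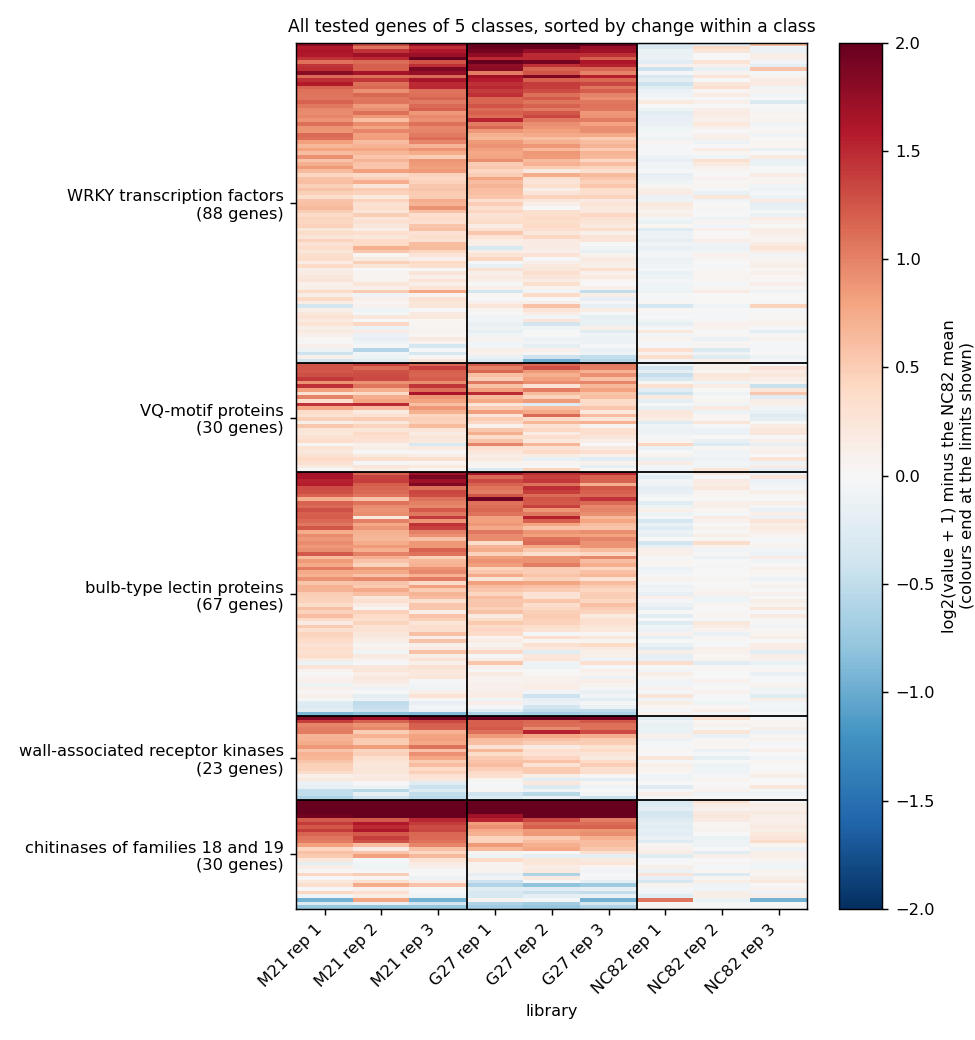
Each tested gene (rows) of WRKY factors, VQ proteins, bulb-type lectin proteins, wall-associated receptor kinases and chitinases in each library (columns, M21, G27 and NC82 from left to right), coloured by log2(value + 1) minus its NC82 mean and sorted by the change of the lines within a class. Red rows reach across all 6 line libraries in 51 of 88 WRKY genes and 43 of 67 bulb-type lectin genes that lay above the NC82 range, while the lower part of each class stays near 0 or turns blue.

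Other transcription factor families did not share a side. AP2/ERF factors, which include the ethylene response factors, had 32 of 139 tested genes above and 6 below. Their widest gap was Nitab4.5_0001088g0170, at 3.29, 2.51 and 2.34 in M21, 3.46, 3.02 and 3.25 in G27 and 0.24, 0.40 and 0.66 in NC82. NAC factors, many of them active in stress and leaf ageing, had 17 of 72 above and 5 below, with Nitab4.5_0000188g0310 at 25.8, 22 and 28.9 in M21, 22.04, 26.5 and 21.8 in G27 and 5.66, 6.96 and 7.99 in NC82. Heat shock transcription factors had 10 of 36 above and 1 below. The widest of these, Nitab4.5_0000090g0270, was at 16.99, 14.8 and 18.4 in M21, 17.8, 19.6 and 13.9 in G27 and 3.04, 3.13 and 1.92 in NC82, with no NC82 library near the lines, and rose by 2.28 on the log2 scale (SE 0.13, limma adjusted p = 1.4e-06). NC82 was under 1 in every library for 4 of the 32 AP2/ERF, 3 of the 17 NAC and 3 of the 10 heat shock factor genes above. These entered the test only through the lines. MYB-type genes leaned to the other side, with 21 of 328 above and 42 below. Nitab4.5_0001534g0020, a Myb gene, was at 8.87, 8.55 and 9.83 in M21, 9.57, 9.18 and 9.13 in G27 and 20.01, 20.5 and 20.9 in NC82. It fell by 1.08 on the log2 scale (SE 0.06, limma adjusted p = 1.3e-06). Helix-loop-helix factors had 15 of 161 above and 23 below, and bZIP factors 6 of 102 above and 15 below. The bZIP gene with the widest gap below, Nitab4.5_0011780g0020, was at most 0.19 in M21 and 0.09 in G27 and at least 1.16 in NC82. This gene entered the test only through NC82.

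Proteins of membrane traffic fell on both sides by family. Target SNAREs and syntaxins, which fuse secretory vesicles with their target membrane, had 16 of 58 tested genes above and 2 below. Exo70 subunits of the exocyst, which tethers those vesicles, had 5 of 23 above and 0 below. Snf7 proteins, the filament-forming part of the ESCRT complex that cuts membranes, had 12 of 29 above and 0 below, with log2 changes of 0.18 to 0.65. Nitab4.5_0000326g0180 was at 14.5, 15.8 and 16.2 in M21, 14.9, 13.7 and 12.96 in G27 and 8.38, 9.38 and 9.10 in NC82, and rose by 0.65 on the log2 scale (SE 0.07, limma adjusted p = 6.6e-05). SNARE-associated Golgi proteins, membrane proteins of a separate family, had 2 of 24 above and 10 below. One of these, Nitab4.5_0000353g0120, was at 12.2, 12.5 and 10.99 in M21, 11.1, 12.5 and 11.1 in G27 and 20.7, 18.1 and 19.4 in NC82, and fell by 0.68 on the log2 scale (SE 0.07, limma adjusted p = 6.2e-05).

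Among detoxifying and specialised-metabolism enzymes, glutathione S-transferases, which attach glutathione to toxic compounds, had 25 of 87 tested genes above and 7 below. This class takes in translation factors that carry the same domain. Nitab4.5_0000008g0130 was at 9.88, 8.59 and 8.83 in M21, 10.9, 18.6 and 11.4 in G27 and 1.71, 2.30 and 2.10 in NC82, a log2 change of 1.99 (SE 0.14, limma adjusted p = 5.2e-06). Terpene synthases had 11 of 30 above and 1 below, with a median log2 change of 1.51 among those above. For 4 of these 11, Nitab4.5_0002485g0020 among them, NC82 was under 1 in every library, so they entered the test only through the lines. Nitab4.5_0002485g0020 of this class averaged 4.98 ± 1.07 in M21, 4.91 ± 1.19 in G27 and 0.687 ± 0.301 in NC82 (SD, n = 3 each). Cytochrome P450 genes had 39 of 194 above and 27 below, but 46 above and 49 below without the 3 libraries high on the third component. UDP-glycosyltransferases had 22 of 131 above and 16 below, and 25 above and 33 below without those libraries. Plant peroxidases had 12 of 63 above and 11 below, and 13 above and 18 below without those libraries. Entry only through the lines also held for 10 of the 39 P450 genes and 5 of the 22 UDP-glycosyltransferases above. It held too for 4 of the 25 glutathione S-transferases and 2 of the 12 peroxidases above, against 435 of all 3797 genes above. The peroxidase Nitab4.5_0002331g0010 was at 17.9, 17.3 and 17.4 in M21, 15.7, 19.1 and 14.9 in G27 and 1.72, 2.68 and 1.70 in NC82, and rose by 2.58 on the log2 scale (SE 0.11, limma adjusted p = 2.9e-07).

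Phenylpropanoid and flavonoid enzymes were on the low side, with 2 of 30 tested genes above and 14 below. Of 8 phenylalanine ammonia-lyases, the entry enzyme of the pathway, 5 lay below and 1 above. Nitab4.5_0005320g0020 was at 19.6, 17.7 and 16.9 in M21, 10.8, 13.8 and 11.4 in G27 and 21.2, 27.6 and 32.2 in NC82. NC82 replicate 1 was the lowest NC82 library for this gene, and the M21 values came near it. It fell by 0.81 on the log2 scale (SE 0.12, limma adjusted p = 0.0007). The ammonia-lyase above the range, Nitab4.5_0012382g0010, was at 14.4, 12.3 and 15.8 in M21, 9.81, 8.10 and 8.36 in G27 and 4.12, 4.05 and 4.43 in NC82. Chalcone synthase and isomerase genes, which make the flavonoid skeleton, had 9 of 19 below and 1 above. Nitab4.5_0014110g0010 was at 14.03, 16.7 and 13.2 in M21, 12.9, 15.5 and 11.6 in G27 and 23.9, 29.8 and 33.1 in NC82, a log2 change of -1.0 (SE 0.12, limma adjusted p = 0.00014). The exception was Nitab4.5_0003185g0100, at 7.53, 6.83 and 8.11 in M21, 7.68, 5.04 and 6.29 in G27 and 1.24, 1.04 and 1.14 in NC82, which rose by 1.87 on the log2 scale (SE 0.11, limma adjusted p = 1.3e-06).

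Several classes of phosphate sensing and phosphate-sparing metabolism had more genes below the NC82 range than above it, although in the larger of these classes most genes lay within the range. Plants short of phosphate are known to induce SPX proteins, phosphatases and enzymes that replace phospholipids with galactolipids or sulfolipids. The broad class of phosphate sensing and scavenging had 20 of 178 tested genes above and 32 below. Its word pattern also takes triose-phosphate transporters, which carry sugar phosphates across membranes. These had 13 of 80 above and 5 below, and limma called 15 higher and 6 lower. Their shares were 16.2% above and 6.25% below, against 11.4% and 6.99% over all tested genes. After rescaling 10 lay above and 8 below. Nitab4.5_0007055g0020 of this family, the widest gap above in the broad class, was at 6.93, 7.99 and 8.23 in M21, 3.57, 3.31 and 4.29 in G27 and 1.31, 0.76 and 1.42 in NC82, and rose by 1.58 on the log2 scale (SE 0.11, limma adjusted p = 5e-06). The narrower classes that follow were added after the values had been seen. SPX proteins, sensors of inositol pyrophosphates that hold back the phosphate starvation regulators, had 2 of 25 above and 11 below. The SPX-only genes among them had 0 of 10 above and 6 below. Nitab4.5_0000859g0200 was at 3.63, 4.10 and 3.50 in M21, 2.95, 3.95 and 4.03 in G27 and 18.03, 21.98 and 22.7 in NC82. It fell by 2.22 on the log2 scale (SE 0.1, limma adjusted p = 3.3e-07), and the M21 and G27 values overlapped. Nitab4.5_0008963g0030 was at 2.20, 2.99 and 2.20 in M21, 1.83, 2.14 and 2.34 in G27 and 12.2, 11.9 and 13.5 in NC82. At a higher level, Nitab4.5_0000209g0010 was at 93.6, 97.5 and 93.4 in M21, 83.95, 89.7 and 90.1 in G27 and 145, 148 and 152 in NC82, and fell by 0.69 on the log2 scale (SE 0.05, limma adjusted p = 5.5e-06). PHOSPHO-type phosphatases, which in Arabidopsis release phosphate from phosphocholine and phosphoethanolamine, had 3 of 5 below and 0 above. The third of them, Nitab4.5_0014046g0010, was at 48.4, 48 and 41.5 in M21, 30.2, 43.1 and 31.4 in G27 and 126, 166 and 186 in NC82. Purple acid phosphatases, which free phosphate from organic compounds, had 10 of 31 below and 1 above, with log2 changes of -0.3 to -0.78 among those below.

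Diacylglycerol glucosyltransferases had the highest share below of the classes counted: all 6 tested genes lay under the NC82 range. Their descriptions join this name to the galactosyltransferases that make the galactolipids of chloroplast membranes. Nitab4.5_0002329g0110 was at 6.79, 7.23 and 7.58 in M21, 8.52, 9.76 and 8.91 in G27 and 22.8, 22.96 and 24.2 in NC82. It fell by 1.42 on the log2 scale (SE 0.07, limma adjusted p = 3.3e-07). Nitab4.5_0005949g0010 was at 31.6, 30.2 and 31.2 in M21, 31.5, 30.9 and 30.9 in G27 and 52.3, 55.5 and 53.2 in NC82, with all line values within a narrow band. The 6 log2 changes ran from -0.26 to -1.42, and limma called all 6 lower. Glycerophosphodiester phosphodiesterases, which break down the backbone of phospholipids, were divided, with 2 of 7 below and 1 above. In this class limma called 2 higher and 2 lower, and after rescaling 2 lay above and 2 below. Nitab4.5_0002172g0020 was at 68.7, 61.2 and 67.2 in M21, 73.4, 67.9 and 71.1 in G27 and 165, 165 and 163 in NC82, and fell by 1.26 on the log2 scale (SE 0.06, limma adjusted p = 3.2e-07). Sucrose-phosphate synthases, which make the phosphorylated precursor of sucrose, had 7 of 10 below and 0 above. Nitab4.5_0000009g0480 was at 20, 16.4 and 20.9 in M21, 18.5, 14.9 and 16.6 in G27 and 61.1, 56.2 and 52.9 in NC82, and fell by 1.62 on the log2 scale (SE 0.09, limma adjusted p = 1.1e-06). These counts were the same with rescaled libraries for the SPX, PHOSPHO, glucosyltransferase and sucrose-phosphate synthase genes below. The phosphate supply of the plants is not given in the labels.

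**Figure D4:**
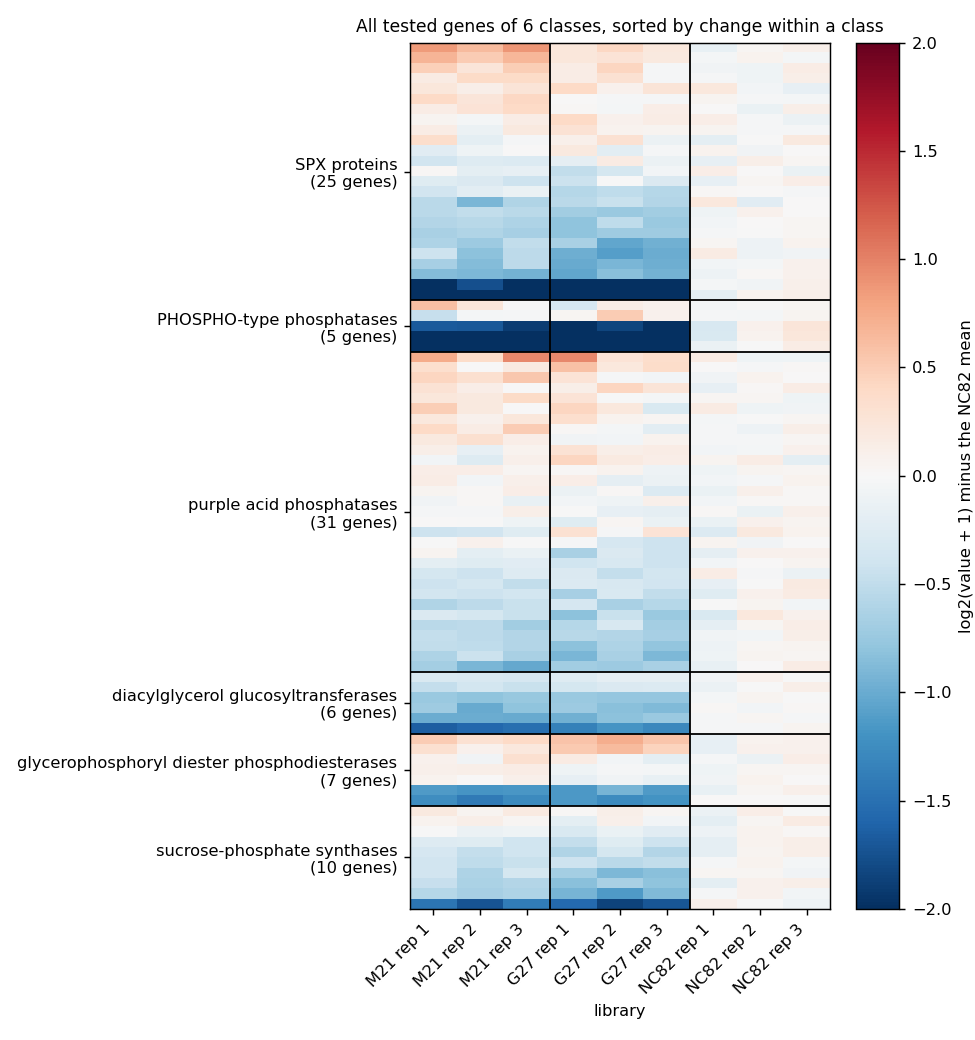
Each tested gene (rows) of 6 of the phosphate- and lipid-related classes in each library (columns, M21, G27 and NC82 from left to right), coloured by log2(value + 1) minus its NC82 mean and sorted by the change of the lines within a class. All 6 diacylglycerol glucosyltransferases and 7 of 10 sucrose-phosphate synthases are blue in every line library, whereas the SPX and purple acid phosphatase classes hold pale and red rows as well.

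Among transporters, aquaporins, SWEET and MATE proteins were more often below the range than above it, and sugar transporters as a whole were divided. Aquaporins, the water channels of the plasma membrane and vacuole, had 4 of 52 tested genes above and 16 below, and limma called 23 lower and 7 higher. Nitab4.5_0009267g0020 was at 1.05, 0.89 and 1.30 in M21, 3.57, 2.95 and 3.40 in G27 and 5.84, 6.87 and 6.31 in NC82. G27 lay between M21 and NC82 in every library, and the log2 change of both lines was -1.3 (SE 0.09, limma adjusted p = 3.7e-06). SWEET transporters, which let sugars leave cells, had 1 of 27 above and 8 below. These changes were small, from -0.27 to -0.63. Over all sugar transporters, 21 of 100 lay above and 17 below, and limma called 27 higher and 21 lower. Both shares exceeded the 11.4% and 6.99% of all tested genes, and after rescaling 22 lay above and 20 below. Nitab4.5_0000066g0190, of the sugar/inositol group, was at 8.45, 7.30 and 8.73 in M21, 7.43, 8.26 and 7.27 in G27 and 2.52, 2.61 and 2.73 in NC82, and rose by 1.3 on the log2 scale (SE 0.07, limma adjusted p = 1.3e-06). Proteins with a heavy metal-associated domain had 7 of 80 above and 22 below. MATE transporters, which export organic acids and alkaloids, had 6 of 62 above and 13 below. Nitab4.5_0000023g0320 was at 4.80, 4.42 and 4.22 in M21, 2.59, 2.17 and 1.75 in G27 and 8.86, 9.76 and 9.31 in NC82, and fell by 1.31 on the log2 scale (SE 0.09, limma adjusted p = 3.2e-06).

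Genes of growth and cell division, the process AN3 is known for, showed no common direction. Growth-regulating factors bind DNA and pair with AN3 in Arabidopsis. The class counted under this name had 1 of 17 tested genes above and 1 below, and limma called 2 higher and 3 lower. Only 8 tested genes carried the QLQ domain of these factors, with 0 above and 1 below, and limma called 1 higher and 2 lower. The gene above was not among these 8, and whether it pairs with AN3 was not tested. The gene above, Nitab4.5_0003600g0010, with the WRC domain, was at 2.97, 3.48 and 4.55 in M21, 3.36, 2.65 and 3.29 in G27 and 2.59, 2.21 and 2.40 in NC82, and rose by 0.36 on the log2 scale (SE 0.11, limma adjusted p = 0.043). That call was lost without any one of 7 libraries (limma adjusted p of 0.056 to 0.16). The gene below, Nitab4.5_0001426g0010, was one of 8 tested genes with the QLQ domain and was at 2.41, 2.28 and 2.70 in M21, 2.56, 2.33 and 2.20 in G27 and 3.31, 3.36 and 3.25 in NC82, and fell by 0.34 on the log2 scale (SE 0.08, limma adjusted p = 0.0087). Histones had 32 of 190 above and 6 below, and DNA replication genes had 15 of 116 above and 2 below, of which class limma called 23 higher and 3 lower. The shares were 16.8% above and 3.16% below for histones and 12.9% and 1.72% for replication genes. Over all tested genes they were 11.4% and 6.99%, so the share of replication genes above was close to that of all genes. Limma called 11.9% of all tested genes higher and 8.95% lower. Of 17 MCM genes, subunits of the replicative helicase, 3 lay above and 0 below, and limma called 6 higher and 0 lower. Nitab4.5_0010575g0040 of these was at 5.60, 6.12 and 6.49 in M21, 8.32, 6.87 and 6.48 in G27 and 5.34, 5.22 and 5.34 in NC82, and rose by 0.27 on the log2 scale (SE 0.08, limma adjusted p = 0.037). Its call was lost without any one of 6 libraries. The other two above the range missed the threshold (limma adjusted p = 0.057 and 0.051). Cyclins and their inhibitors had 7 of 88 above and 11 below, kinesins 2 of 58 above and 4 below, and tubulins 3 of 62 above and 6 below. In this order, their shares above were 7.95, 3.45 and 4.84%, and their shares below 12.5, 6.9 and 9.68%. The kinesin Nitab4.5_0003404g0060 stood out at 40.9, 30.8 and 46.2 in M21, 34.8, 26.6 and 25.8 in G27 and 9.12, 7.92 and 6.59 in NC82, and rose by 1.97 on the log2 scale (SE 0.14, limma adjusted p = 4.4e-06).

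Expansins, which loosen the wall of growing cells, had 0 of 32 tested genes above and 8 below, and limma called 13 lower and 0 higher. Nitab4.5_0003845g0060 was at 12.1, 12.97 and 13.1 in M21, 13.5, 11.6 and 11.02 in G27 and 22.1, 24.7 and 23.01 in NC82. It fell by 0.86 on the log2 scale (SE 0.07, limma adjusted p = 1.5e-05). Xyloglucan and cellulose enzymes were divided, with 11 of 67 above and 8 below, and 10 above and 12 below after rescaling. The xyloglucan endotransglycosylase Nitab4.5_0002630g0010 was at 96.8, 96.2 and 96.4 in M21, 55.5, 67.1 and 57.7 in G27 and 17.3, 21.4 and 21.7 in NC82. M21 was higher than G27 in every library, and both were above NC82. Genes of cytokinin, the hormone of cell division, had 1 of 28 above and 7 below. Nitab4.5_0001297g0040, a gene of the enzyme that releases active cytokinin from its riboside phosphate, was at 3.31, 3.19 and 3.29 in M21, 2.40, 2.76 and 1.84 in G27 and 6.49, 8.62 and 9.25 in NC82, and fell by 1.27 on the log2 scale (SE 0.11, limma adjusted p = 2.1e-05). Auxin classes gave few members, with 5 of 82 Aux/IAA and auxin response factor genes above and 6 below. Jasmonate pathway genes had 6 of 39 above and 6 below.

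Core cell functions stayed mostly inside the NC82 range. Of 923 ribosomal protein genes, 25 lay above and 31 below, although limma called 143 lower and 25 higher. Photosystem subunits had 3 of 112 above and 7 below, chlorophyll a/b binding proteins 8 of 86 above and 2 below, and carbon fixation enzymes 3 of 91 above and 5 below. Of the chlorophyll a/b binding genes limma called 6 higher and 5 lower, and after rescaling 3 lay above and 3 below. Proteasome subunits had 14 of 160 above and 5 below, but limma called 4 higher and 6 lower, and after rescaling 6 lay above and 6 below. Pentatricopeptide repeat proteins, which edit and process organelle RNA, had 27 of 517 above and 19 below. Their side turned after rescaling, with 16 above and 21 below. Genes with no domain in their description made up 4737 of those tested, with 453 above and 263 below. DUF506 proteins, a family without a settled role, had 9 of 17 below and 0 above, with a median log2 change of -1.08 among those below.

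The rule takes both lines as one side and treats them alike. It still asks every line value to clear NC82, and so leaves out genes for which a line overlapped with NC82. It sets no minimum gap, so genes that moved almost only in a single line can be members. The M21 against G27 contrast was fitted over all tested genes, and its shares among the chosen genes are a description. Over all tested genes, limma called 1817 (5.47%) higher and 2124 (6.4%) lower in M21 than in G27. Among the genes above the NC82 range, 350 (9.22%) were higher and 106 (2.79%) lower in M21. Among the genes below it, 121 (5.22%) were higher and 185 (7.97%) lower in M21. The M21 mean was the higher one for 2307 of the 3797 genes above and the lower one for 1274 of the 2320 genes below. For 5355 of the 6117 genes the lines were not called different. These counts moved with single libraries, to 283 genes higher and 165 lower in M21 without M21 replicate 1, against 471 and 291 with all libraries. Without NC82 replicate 1 there were 505 lower in M21.

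The largest differences in favour of M21 came from a phosphatase, a peroxidase and a proteinase inhibitor. Nitab4.5_0000072g0070, a protein phosphatase of the 2C type, was at 11.97, 10.6 and 13.1 in M21, 0.78, 0.61 and 0.51 in G27 and 0.26, 0.17 and 0.12 in NC82. It was under 1 in every G27 and NC82 library, and M21 lay above G27 by 2.98 on the log2 scale (SE 0.11, limma adjusted p = 2.6e-07). The peroxidase Nitab4.5_0003436g0020 was at 172, 197 and 195 in M21, 57.9, 67.4 and 71.5 in G27 and 21.7, 22.2 and 30.7 in NC82. The 3 groups were separate, with G27 in between, and the difference of M21 from G27 was 1.51 (SE 0.13, limma adjusted p = 0.00012). Nitab4.5_0003154g0030, of the potato inhibitor I family, was at 60.2, 43.9 and 69.7 in M21, 20.1, 18.5 and 21.2 in G27 and 7.85, 9.93 and 8.69 in NC82, with a difference of 1.47 (SE 0.15, limma adjusted p = 0.00026). In favour of G27, the SS18 gene Nitab4.5_0007901g0050 described above came first. Next was Nitab4.5_0002015g0090, an oxoglutarate-dependent dioxygenase, at 0.37, 0.59 and 0.37 in M21, 8.61, 21.3 and 9.12 in G27 and 0.33, 0.12 and 0.35 in NC82. Its M21 values barely cleared the NC82 range, and M21 minus G27 was -3.17 (SE 0.26, limma adjusted p = 0.00011). The glutathione S-transferase Nitab4.5_0000641g0050 was at 4.28, 4.10 and 3.65 in M21, 17.5, 38.8 and 18.6 in G27 and 0.38, 1.23 and 0.94 in NC82, with a difference of -2.28 (SE 0.26, limma adjusted p = 0.00051).

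Classes varied in how many of their genes differed between the lines. Of the 32 AP2/ERF genes above the range, 10 were higher in M21 and 0 lower. Of the 39 genes above in the chitinase and pathogenesis-related class, 12 were higher in M21 and 2 lower, and of the 39 P450 genes above, 9 were higher and 0 lower. Among the 314 protein kinases above, 19 were higher and 1 lower in M21, smaller shares than the 9.22% and 2.79% over all genes above the range. Of the 51 WRKY genes above, 3 were higher in M21, a smaller share than 9.22%. The 5 WRKY genes that were lower in M21 made up a larger share than 2.79%. Over all genes below the range, 7.97% were lower and 5.22% higher in M21. Of the 16 aquaporins below, 8 were lower in M21 and 0 higher. Of the 31 ribosomal protein genes below, 14 were lower in M21 and 0 higher, and of the 22 heavy metal-associated genes below, 7 were lower and 0 higher. The 11 SPX genes below included 0 that differed between the lines in either direction at this threshold. At shares of 7.97% and 5.22% few of 11 genes would be called, so this count does not set the SPX genes apart.

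**Figure D5:**
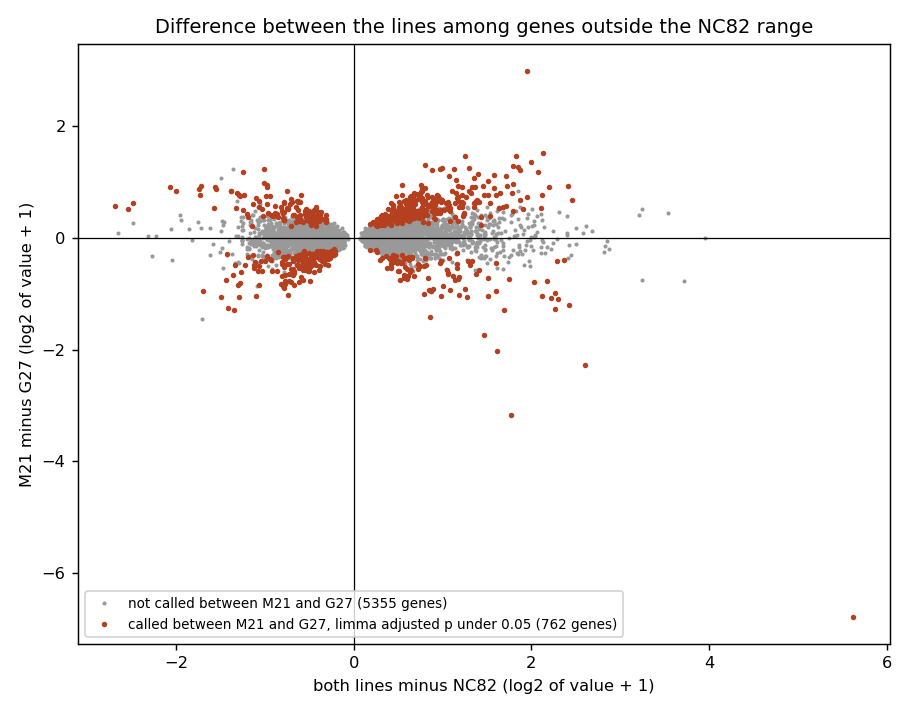
Each of the 6117 genes outside the NC82 range by the log2 change of both lines over NC82 (x axis) and the log2 difference of M21 minus G27 (y axis), both on log2(value + 1). Red points are the 762 genes that limma called different between the lines at an adjusted p under 0.05, grey points the other 5355; the SS18 gene lies alone at the lower right, at 5.62 on the x axis and -6.78 on the y axis.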

How the data were processed

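RNA of young tobacco leaf was sequenced as paired-end libraries from total RNA, per the labels' protocols. HISAT2, StringTie and RSEM are named in the submitters' processing notes. No version, build, annotation or strandedness is given in what was used here. As deposited by the authors, the table holds 1 expression signal per gene and library, normalized by the authors for depth, and does not name its unit. Read counts per library were not analysed here, so the depth is known only as relative steps of low values. RefSeq names were looked up for all 69500 identifiers, of which 0 matched.

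Libraries were grouped by the genotype in their labels. Genes entered if 3 or more of the 9 libraries reached a value of 1. The side of each gene came from its lowest and highest values, and a tie with the NC82 range was no member. limma 3.58.1 in R 4.3.3 was fitted to log2(value + 1), a scale that understates changes of low genes, with 1 mean per genotype, empirical Bayes and a mean trend. Its contrasts were the mean of M21 and G27 minus NC82, and M21 minus G27. P-values were two-sided, with Benjamini-Hochberg adjustment over 33188 genes and a threshold of 0.05. The script was tested on simulated data. Classes were word patterns on the descriptions, so a gene can be in several. The pattern for homeobox also takes Myb genes and that for lectins also takes kinases.

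The genes named are every tested SS18 gene, the widest gap per class and side (30 with values), the 10 widest gaps per side, and the 3 largest differences between the lines per direction. Other named genes were chosen after their values were seen. The genes and lists were chosen with earlier results of these data known. Alternatives were another pseudocount, 2 other filters, median-ratio scaling, a minimum gap, leaving out libraries, a replicate block, 2 means and no trend. Replicate numbers gave no clear pairing of the libraries: the 9 correlations of same-numbered libraries ran from -0.21 to 0.34. With 3 libraries per genotype these correlations cannot exclude pairing, so a replicate block was fitted as an alternative. Figures were drawn with Python 3.11.15 and matplotlib 3.10.9.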

Additional observations from a re-analysis of the deposited data

Results flagged for a closer look

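The difference between the lines was tested by limma's contrast of M21 minus G27, and each result here passed an adjusted p under 0.05 in it. Among the genes outside the NC82 range, 471 were higher and 291 lower in M21. Of the genes named, the following differed, with M21 minus G27 on the log2 scale. Among genes above the range, the SS18 gene Nitab4.5_0007901g0050 differed by -6.78, the dioxygenase Nitab4.5_0002015g0090 by -3.17 and the glutathione S-transferase Nitab4.5_0000641g0050 by -2.28. The protein phosphatase Nitab4.5_0000072g0070 differed by 2.98, the peroxidase Nitab4.5_0003436g0020 by 1.51 and the proteinase inhibitor Nitab4.5_0003154g0030 by 1.47. The triose-phosphate transporter Nitab4.5_0007055g0020 differed by 0.89. Smaller differences were 0.68 for the xyloglucan endotransglycosylase Nitab4.5_0002630g0010, 0.63 for the ammonia-lyase Nitab4.5_0012382g0010 and 0.52 for the CAP-domain gene Nitab4.5_0005400g0020. Among genes below the range, the aquaporin Nitab4.5_0009267g0020 differed by -1.05 and the glucosyltransferase Nitab4.5_0002329g0110 by -0.29. The MATE transporter Nitab4.5_0000023g0320 differed by 0.8, Nitab4.5_0000365g0010 with no domain by 0.62, the PHOSPHO-type phosphatase Nitab4.5_0009182g0010 by 0.56, the ammonia-lyase Nitab4.5_0005320g0020 by 0.56 and the CBS-domain gene Nitab4.5_0002752g0140 by 0.51. Several of these calls were not stable. That of the CBS-domain gene was lost in 6 of the alternatives (limma adjusted p of 0.058 to 0.1), that of the ammonia-lyase Nitab4.5_0005320g0020 in 5 (0.06 to 0.099), that of the glucosyltransferase in 5 (0.052 to 0.12), and that of Nitab4.5_0000365g0010 without the 3 libraries high on the third component (0.071).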

How the results depend on the processing

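Requiring a value of 5 or more in at least 3 libraries left 2324 genes above and 1468 below, because fewer genes entered. A gap of at least 1.2-fold left 1078 and 747. Without the 3 libraries high on the third component there were 5934 above and 4881 below. With 1 library left out, genes above ranged from 3947 to 5318 and genes below from 2439 to 3805, both highest without NC82 replicate 1. Classes with more genes above than below ranged from 34 to 45, and were 30 after median-ratio scaling and 33 without the 3 libraries. In limma, genes that rose ranged from 2661 to 4312 with 1 library left out and genes that fell from 1904 to 3011. Genes outside the range that were higher in M21 than in G27 ranged from 283 to 622, and those lower from 165 to 505. Fitting the lines as 1 group gave 2609 higher and 1749 lower, because the difference between the lines then counts as spread. After median-ratio scaling limma called 3480 higher and 3690 lower. The replicate block gave 3790 higher and 2835 lower, and 433 and 248 for M21 against G27. Libraries correlated best with their own replicate number in 5 of 18 checks.

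Among the genes named, 1272 of the values recomputed for the lines against NC82 kept their direction and side of the threshold, 36 lost their call and 6 changed sign. The sign changes were all of the SS18 gene Nitab4.5_0000319g0250, which was not called in any of them. Its log2 change was 0.01 as reported, -0.04 after median-ratio scaling, -0.1 without the 3 libraries, and from -0.05 to 0.06 with 1 library left out. For M21 against G27, 256 values kept their call and 32 lost it. That call of the CAP-domain gene Nitab4.5_0005400g0020 was lost under most alternatives, among them another pseudocount (adjusted p = 0.051). Of the class counts, 412 of the recomputed values moved by more than 1.5 times and 1492 did not. The cause of these moves was not tested. The unit and the read depth limit what low genes can show.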
